A study of Mus musculus with 4 samples.

Results

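The miR-10, miR-99, miR-100 and miR-125 families were followed here in MIN6 cells and in the exosomes these cells release. MIN6 is a mouse insulinoma line that keeps the glucose-regulated insulin secretion of a pancreatic β-cell, and exosomes are small membrane vesicles that carry miRNAs out of the cell. The members are 9 mature strands, selected by name from the 1915 mature mouse miRNAs in the series: mmu-miR-10a-5p, mmu-miR-10b-5p, mmu-miR-99a-5p, mmu-miR-99b-5p, mmu-miR-99b-3p, mmu-miR-100-5p, mmu-miR-125a-5p, mmu-miR-125a-3p and mmu-miR-125b-5p, written without the species prefix from here on. The strands of mir-99b and mir-125a carried nearly all of the reads. Their 5p strands were lower in the exosomes than in the cells, miR-125a-3p was higher, and miR-10b-5p, at a few reads per library, took a larger share of the exosome reads. The remaining members were at or near the limit of detection in one or both groups.

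A miRNA is cut from a hairpin precursor, whose left arm gives the 5p strand and whose right arm gives the 3p strand. Usually one of them, the guide, is loaded into an Argonaute protein, while the other is the passenger and is degraded. The guide finds target mRNAs mainly by its seed, bases 2 to 8 from the 5′ end. The miR-10 family is among the oldest in animals. miR-10a and miR-10b are embedded in Hox gene clusters, miR-99 and miR-100 are known for targeting Mtor and the Igf1 receptor, and miR-125 is the vertebrate relative of lin-4. In several genomic clusters a miR-99 or miR-100 hairpin, a let-7 hairpin and a miR-125 hairpin are transcribed together.

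The mature sequences, taken from the deposited tables and identical to those in RefSeq for all 9 members, are shown because the members are told apart by few bases. The seed is in capitals.
miR-10a-5p: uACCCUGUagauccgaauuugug
miR-10b-5p: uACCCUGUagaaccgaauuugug
miR-99a-5p: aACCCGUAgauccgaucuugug
miR-99b-5p: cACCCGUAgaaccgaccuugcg
miR-100-5p: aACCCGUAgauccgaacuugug
miR-125a-5p: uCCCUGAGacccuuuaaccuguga
miR-125b-5p: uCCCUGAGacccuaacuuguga
miR-99b-3p: cAAGCUCGugucuguggguccg
miR-125a-3p: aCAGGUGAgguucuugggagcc

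The 7 5p strands fell into 3 seed groups. miR-10a-5p and miR-10b-5p shared ACCCUGU and differed by the single substitution U12A, with positions counted from 1 at the 5′ end. miR-99a-5p, miR-99b-5p and miR-100-5p shared ACCCGUA. miR-99a-5p differed from miR-100-5p by U16A alone, and from miR-99b-5p by 4 substitutions. miR-125a-5p and miR-125b-5p shared CCCUGAG and their first 13 bases. The 3p strands had seeds of their own. Among the listed mouse miRNAs, the seed of miR-125 was also found in miR-351-5p, miR-6367 and miR-6394, and that of miR-99b-3p in miR-99a-3p.

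By the GENCODE vM21 annotation of GRCm38, the build that the submitters' processing notes name as mm10, Mir99b (chromosome 17, 17830188 to 17830257), Mirlet7e (17830352 to 17830444) and Mir125a (17830812 to 17830879) lie within 692 bases on the plus strand, inside Spaca6. Mir99b and Mirlet7e lie in introns of Spaca6, and Mir125a overlaps an exon in 1 of the 3 Spaca6 transcripts that span it. Mir99a (chromosome 16, 77598936 to 77599000), Mirlet7c-1 and Mir125b-2 (77646273 to 77646343) lie in introns of the non-coding gene Mir99ahg, and Mir125b-2 also overlaps an exon of C130023A14Rik. Mir100 (chromosome 9, 41531425 to 41531504), Mirlet7a-2 and Mir125b-1 (41581926 to 41582002) lie in introns of the non-coding gene 3110039I08Rik, and Mir125b-1 also overlaps an exon of the non-coding Gm28119. Mir10b (chromosome 2, 74726070 to 74726137) lies in introns of Hoxd3 and Hoxd4, and at Mir10a (chromosome 11, 96317165 to 96317274) no other gene was annotated. miR-125b-5p is made from 2 hairpins, and in the hairpin tables nearly all of its reads were counted at both, for example 199 at mir-125b-1 and 196 at mir-125b-2 in cell replicate 2, so that its counts could not be divided between them.

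The hairpins of mir-99b and mir-125a are printed from the deposited tables with both strands in capitals, because the results turn on the balance between these strands.
mir-99b: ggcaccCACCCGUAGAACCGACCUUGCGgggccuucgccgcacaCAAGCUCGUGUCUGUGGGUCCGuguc
mir-125a: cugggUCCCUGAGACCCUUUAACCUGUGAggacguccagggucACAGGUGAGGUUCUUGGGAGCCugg

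The series holds 2 MIN6 cell libraries and 2 MIN6-derived exosome libraries, and nothing in the labels says whether these came from separate cultures, so p-values measure only the spread between these libraries. Cells were grown in DMEM with 15% exosome-depleted fetal bovine serum and 55 µM β-mercaptoethanol, without further treatment, and exosomes were pelleted from their conditioned medium by ultracentrifugation after filtration. The counts on mature miRNAs were 2930217 and 2564068 for cell replicates 1 and 2, and 47447 and 31409 for exosome replicates 1 and 2. A count of 3, used here as the floor, is worth 1.02 and 1.17 RPM (reads scaled to a library of 1000000 mature counts) in the cells but 63.2 and 95.5 RPM in the exosomes, so low values in exosomes are coarse. All intervals given here cover counting error only.

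The cell libraries held all 8 β-cell and neuroendocrine miRNAs on the marker list, which includes miR-375-3p, a miRNA abundant in islets. These summed to 56613 and 55520 RPM in the cells and to 32373 and 14327 RPM in the exosomes. miR-375-3p itself overlapped, at 9113 and 9881 RPM in the cells against 10686 and 7068 RPM in the exosomes. miR-184-3p and miR-182-5p also overlapped. miR-7a-5p, miR-7b-5p, miR-183-5p and miR-375-5p were lower in both exosome libraries. miR-96-5p was at 0 counts in the exosomes, but its 6.48 and 9.36 RPM in the cells lie below the exosome floor. The 16 miRNAs listed for erythroid, leukocyte, liver, mesenchymal, muscle and endothelial cells summed to 86.7 and 96.7 RPM in the cells but to 21308 and 15282 RPM in the exosomes. For 13 of the 16, each exosome library exceeded each cell library. The groups overlapped for miR-144-3p and miR-1a-3p, and miR-133a-3p was at 0 throughout. How many of all miRNAs showed such an order in RPM was not counted. Scaled by library size alone, the 438 miRNAs that passed the filter on low counts had a median log2 fold change of 0.61 towards the exosomes. In these bulk samples a level cannot be split into the number of vesicles or cells holding a miRNA and the amount in each.

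Together the 9 members took 1.59% and 1.63% of all counts in the cell libraries. In the exosomes they took 0.655% of the counts of replicate 1 (95% Wilson interval 0.587 to 0.732) and 0.283% of replicate 2 (0.230 to 0.349). The share was thus lower in both exosome libraries, and the exact permutation test gave p = 0.333, the smallest value that 2 libraries against 2 allow. The mir-99b and mir-125a strands accounted for 99.7% and 99.5% of the members' counts in the cells, compared with 96.1% and 96.6% in the exosomes.

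**Figure D1:**
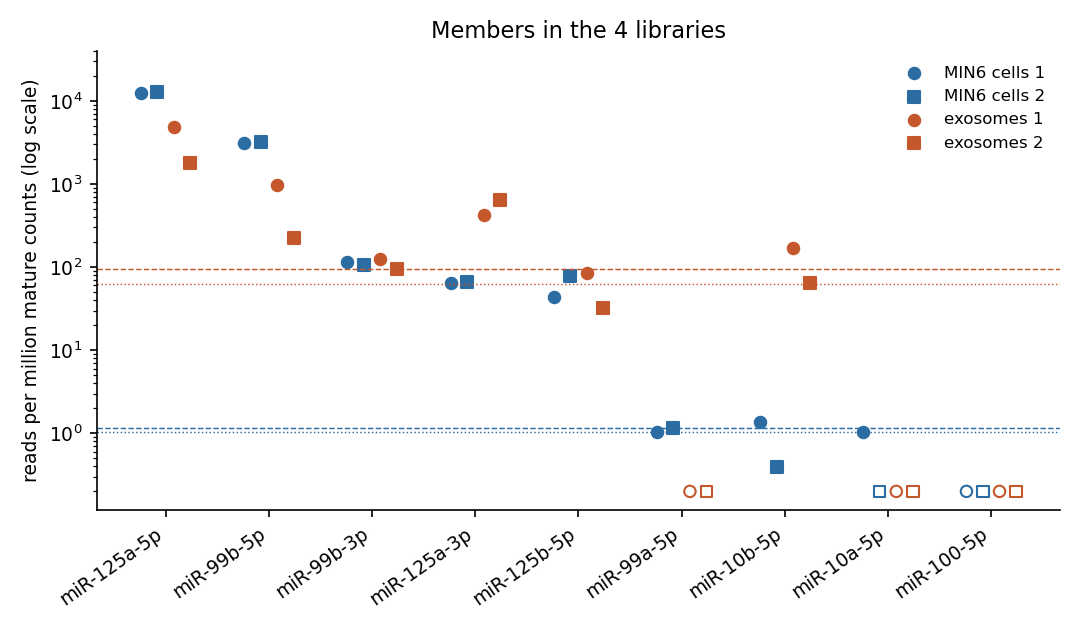
Level of each member in RPM (vertical log axis) in the 2 MIN6 cell libraries (blue) and the 2 exosome libraries (orange), with circles for replicate 1 and squares for replicate 2. Open symbols at the bottom mark a count of 0, and the horizontal lines mark the floor of 3 counts (dotted for replicate 1, dashed for replicate 2). miR-125a-5p and miR-99b-5p lie lower in both exosome libraries, whereas miR-125a-3p and miR-10b-5p lie higher.

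In the cells miR-125a-5p ranked first at 12658 ± 206 RPM (SD, n = 2), followed by miR-99b-5p at 3180 ± 80.6 RPM and miR-99b-3p at 109 ± 6.17 RPM. miR-125a-3p at 65.4 ± 1.27 RPM and miR-125b-5p at 60.8 ± 24.3 RPM came next, and this pair did not differ beyond its spread. The plot of member levels by library shows that the other 4 were at most 1.37 RPM in either cell library. The annotated strands are all 22 to 24 bases long, so these levels were not corrected for length. The lengths of the reads themselves were not examined. In the exosomes miR-125a-5p was again the highest in each library. Next was miR-99b-5p in replicate 1 and miR-125a-3p in replicate 2, and these strands overlapped between the libraries. miR-10b-5p, at 169 and 63.7 RPM, overlapped with miR-99b-3p and with miR-125b-5p, and each of these 3 rested on 8 or fewer counts per library.

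miR-125a-5p, the abundant strand of its hairpin in these cells, was counted 36664 and 32830 times in the cells but 227 and 56 times in the exosomes. This corresponds to 12512 and 12804 RPM in the cells against 4784 and 1783 RPM in the exosomes. The exosomes were therefore below the cells, without overlap, before any further scaling. With TMM normalization, which scales libraries by a trimmed mean over the miRNAs, the log2 fold change of exosomes over cells was -3.32 (SE 0.58, Benjamini-Hochberg adjusted p = 0.0158, quasi-likelihood test in edgeR). The median over all tested miRNAs under this scaling was -0.75, not 0. Under scaling by library size alone the change was -1.93 and the edgeR adjusted p rose to 0.0775.

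miR-99b-5p, which carries the miR-99/100 seed, gave 9150 and 8299 reads in the cells against 46 and 7 in the exosomes. In RPM this was 3123 and 3237 against 970 and 223. The groups did not overlap, and the exosome replicates differed from each other more than the cell replicates did. The TMM-based log2 fold change reached -3.78 (SE 0.70, edgeR adjusted p = 0.0182). Scaling by library size alone gave -2.38 with an edgeR adjusted p of 0.0722.

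Relative to their 5p partners, both 3p strands were higher in the exosomes, but as levels only miR-125a-3p rose. The cells gave 189 and 170 reads of miR-125a-3p, and each exosome library gave 20. In RPM it rose from 64.5 and 66.3 in the cells to 422 and 637 in the exosomes, a ratio of the means of 8.09. The groups did not overlap, and the TMM-based log2 fold change amounted to 1.73 (SE 0.47, edgeR adjusted p = 0.0404). Without a filter on low counts it was 0.42 (edgeR adjusted p = 0.696). The call was also lost with the replicate number as a block (edgeR adjusted p = 0.0805).

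For miR-99b-3p, 333 and 269 reads were found in the cells, against 6 and 3 in the exosomes. At 114 and 105 RPM in the cells and 126 and 95.5 RPM in the exosomes, its share of the library overlapped between the groups. At an unchanged level, 14.6 and 7.38 counts would fall in the exosome libraries by TMM, but 5.20 and 3.44 by library size alone. Accordingly the log2 fold change was -1.29 with TMM (SE 0.38, edgeR adjusted p = 0.0476) but 0.054 under scaling by library size. The call of miR-99b-3p thus depends on the scaling.

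The balance of the strands within a hairpin does not depend on any scaling between libraries. For mir-125a the 3p strand made up 0.513% and 0.515% of the reads on both strands in the cells. In the exosomes it made up 8.10% of 247 reads in replicate 1 (95% exact interval 5.02 to 12.2) and 26.3% of 76 reads in replicate 2 (16.9 to 37.7). For each 3p read there were 194 and 193 reads of the 5p strand in the cells, compared with 11.4 and 2.80 in the exosomes. On the log2 scale the mean 3p over 5p ratio (0.5 added to each count) was 5.13 higher in the exosomes, with p = 0.333 from the exact permutation test, the smallest it can give.

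For mir-99b the 3p strand made up 3.51% and 3.14% of the reads in the cells. It made up 11.5% of 52 reads in exosome replicate 1 (95% exact interval 4.35 to 23.4) and 30% of 10 reads in replicate 2 (6.67 to 65.2), again above both cell libraries. The log2 ratio was 2.89 higher in the exosomes (exact permutation test, p = 0.333). On let-7e, which lies between them, the 3p strand was rare throughout, with 69 of 69338 and 83 of 63873 reads in the cells and 2 of 725 and 0 of 155 in the exosomes. A count of 0 in 155 reads allows a share of up to 2.35% by the exact interval, and the exact interval of replicate 1 reached 0.993%. On the same log2 scale the ratio of let-7e was 1.54 higher in the exosomes (exact permutation test, p = 0.333), a value that rests on these 2 reads and on the 0.5 added to each count.

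**Figure D2:**
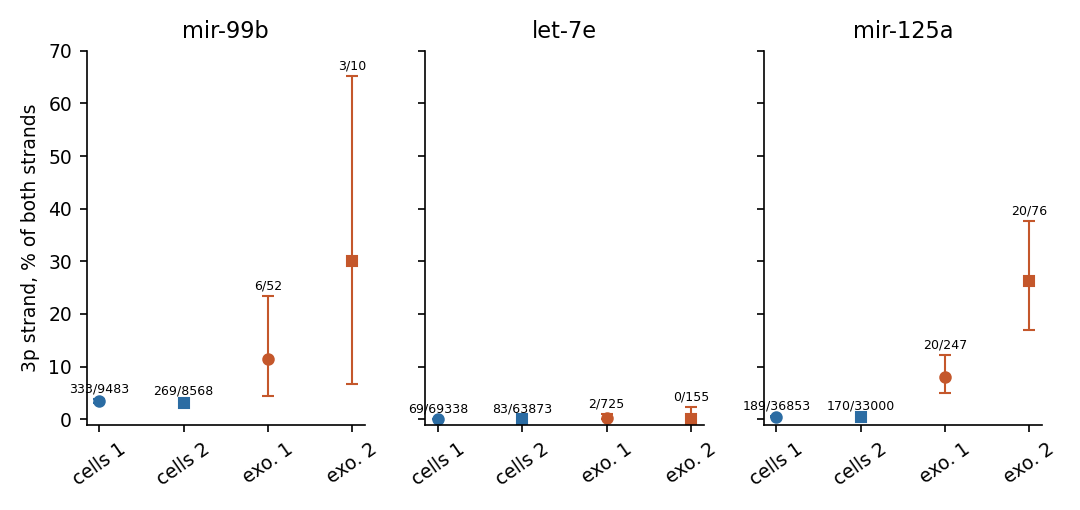
Share of the 3p strand among the reads on both strands of mir-99b, let-7e and mir-125a (vertical axis, percent) in each library, with exact 95% intervals and the counts of 3p over all strand reads. The 3p share of mir-99b and mir-125a lies higher in both exosome libraries (orange) than in both cell libraries (blue), while that of let-7e is near 0 in each library.

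Such a rise of the less abundant strand was not particular to these hairpins. Among the 60 hairpins with 2 annotated strands of their own and at least 10 strand reads in every library, the strand that was the lesser in the cells had a higher share in both exosome libraries than in both cell libraries for 20 hairpins (33.3%). mir-99b and mir-125a were among the 20. Of the other hairpins, many had a lower share in both exosome libraries than in both cell libraries, and the rest overlapped. On mir-125a, part of the exosome reads also lay on neither strand. There were 18 such reads of 265 in replicate 1 and 14 of 90 in replicate 2, against 0 of 36853 and 0 of 33000 in the cells. Across 135 hairpins with at least 10 reads in every library, 54 (40.0%) had a higher share of such reads in both exosome libraries. The part of these reads in the 3p result was not tested. mir-99b had 0 such reads in each library.

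The 3 hairpins of the Spaca6 cluster share a primary transcript, so their strands were compared with let-7e-5p, the abundant strand of the middle hairpin. Per 100 let-7e-5p reads there were 13.2 and 13.01 reads of miR-99b-5p in the cells, compared with 6.36 and 4.52 in the exosomes. miR-125a-5p had 52.9 and 51.5 such reads in the cells, compared with 31.4 and 36.1 in the exosomes. Both 5p strands were therefore lower relative to let-7e-5p in each exosome library, with log2 differences of -1.24 for miR-99b-5p and -0.63 for miR-125a-5p. let-7e-5p itself went from 69269 and 63790 reads to 723 and 155 (log2 fold change -2.65, edgeR adjusted p = 0.0314).

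The 3p strands went the other way. Per 100 let-7e-5p reads, miR-125a-3p had 0.273 and 0.266 reads in the cells, compared with 2.77 and 12.9 in the exosomes. miR-99b-3p had 0.481 and 0.422 in the cells, compared with 0.830 and 1.94 in the exosomes. For each of the 4 ratios the groups did not overlap, and the exact permutation test gave p = 0.333, its smallest possible value. The share of all miRNAs with such an order relative to let-7e-5p was not counted. With TMM the log2 fold change of let-7e-5p was -2.65, against a median of -0.75 over all tested miRNAs. A miRNA that fell less than let-7e-5p is therefore higher in this ratio, as was miR-99b-3p with its own -1.29.

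**Figure D3:**
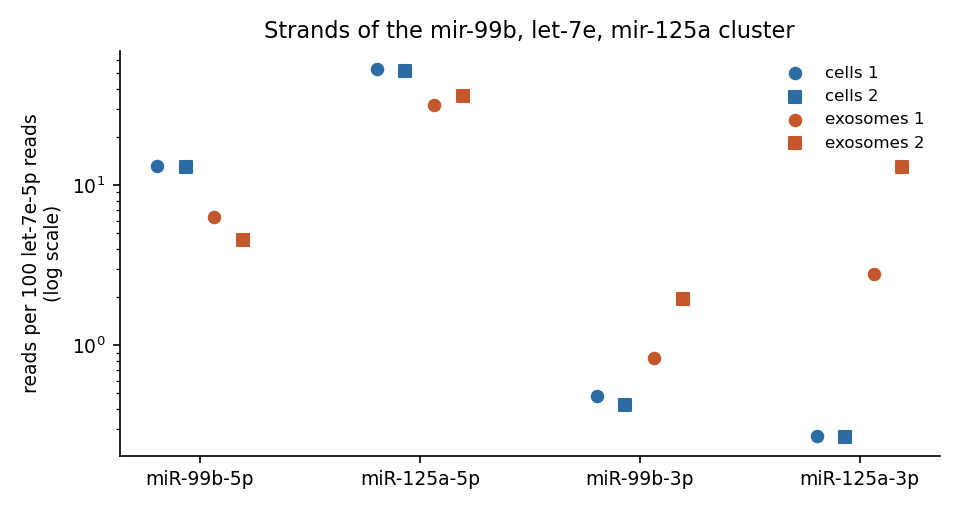
Reads of the mir-99b and mir-125a strands per 100 reads of let-7e-5p (vertical log axis) in the MIN6 cell (blue) and exosome (orange) libraries. The 5p strands lie lower and the 3p strands higher in both exosome libraries than in both cell libraries.

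miR-125b-5p, which shares the miR-125 seed but comes from the other clusters, gave 128 and 200 reads in the cells but 4 and 1 in the exosomes. In RPM these were 43.7 and 78.0 against 84.3 and 31.8, so that the groups overlapped. With TMM its log2 fold change was -1.33 and did not pass the test (SE 0.69, edgeR adjusted p = 0.165), and under scaling by library size it was 0.043. The ratio of summed counts of exosomes over cells had a 95% exact counting interval from 0.343 to 2.50 by library size and from 0.135 to 0.985 by TMM sizes. Per let-7a-5p read the log2 ratio of miR-125b-5p was 1.81 higher in the exosomes, and per let-7c-5p read 1.21 higher. In either ratio the groups did not overlap (exact permutation test, p = 0.333), but the exosome values rest on 4 and 1 counts of miR-125b-5p. The share of all miRNAs with such an order relative to let-7a-5p or let-7c-5p was not counted. With TMM the log2 fold changes of let-7a-5p and let-7c-5p were -2.75 and -2.20 (edgeR adjusted p = 0.0437 and 0.0574). A miRNA with a less negative value, such as the -1.33 of miR-125b-5p, is higher in these ratios. A fall of miR-125b-5p itself was not established. let-7a-5p and let-7c-5p come from more than 1 hairpin, so these ratios do not belong to one transcript. Over the whole miR-125 seed, the exosomes also held miR-351-5p, at 0 counts in both cell libraries and 14 and 7 in the exosomes, a strand outside the named families that was picked for its seed.

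For miR-10b-5p only 4 and 1 reads were found in the cells, compared with 8 and 2 in the exosomes, although the cell libraries were far deeper. In RPM this was 1.37 and 0.390 against 169 and 63.7, with no overlap. The log2 fold change by TMM was 5.61. From the summed counts, 10 in the exosomes and 5 in the cells, the ratio by TMM sizes was 54.8 with a 95% exact counting interval from 17.1 to 204. miR-10b-5p passed the filter on low counts only through the exosome libraries, so that a tested miR-10b-5p had to be higher there. Its values, the interval included, are given as a description, with no p. The interval pools the libraries of a group, leaves out the spread between them and is not a test. By RPM, 13 of the 16 miRNAs listed for cell types other than the β-cell had each exosome library above each cell library. miR-144-3p, miR-1a-3p and miR-133a-3p did not. How many of all miRNAs had this order in RPM was not counted, and after TMM scaling 33.3% of the tested miRNAs had it. One of the 13, the erythroid miR-451a, was at 0 in both cell libraries and had 33 and 2 counts in the exosomes. Whether other cells or the medium had a part in the miR-10b-5p counts was not tested.

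The remaining members were barely detected. miR-10a-5p, which differs from miR-10b-5p by 1 base, gave 3 reads in cell replicate 1 and 0 elsewhere. miR-99a-5p had 3 counts in each cell library and 0 in the exosomes, where an unchanged level would give 0.145 and 0.0736 counts by TMM, so a fall was not detectable at this depth. miR-100-5p had 0 counts in every library. In the cells a count of 0 allows up to 1.02 and 1.17 RPM. The other annotated strands of these hairpins, miR-10a-3p, miR-10b-3p, miR-99a-3p, miR-100-3p, miR-125b-1-3p and miR-125b-2-3p, held a single count in all, which was of miR-125b-2-3p in cell replicate 1. let-7a-2-3p and let-7c-1-3p, the passenger strands of the let-7 hairpins beside mir-100 and mir-99a, were also at 0. Within the miR-99/100 seed, miR-99b-5p thus supplied 9150 of 9153 and 8299 of 8302 counts in the cells, and all 46 and 7 counts in the exosomes.

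Of the 9 members, 6 passed the filter on low counts and entered the test with all 438 miRNAs. With the adjusted p of edgeR under 0.05, 3 were lower in the exosomes, namely miR-125a-5p, miR-99b-5p and miR-99b-3p, while over all tested miRNAs 29.5% were lower. miR-125a-3p was higher, as were 23.7% of all tested miRNAs. miR-10b-5p also passed the threshold, but since it was tested only because of its exosome counts, it is not read against this share. After TMM scaling, the exosomes were below the cells without overlap for miR-125b-5p and the 3 lower members, as for 51.8% of the tested miRNAs. They were above them for miR-125a-3p, as for 33.3%, and for miR-10b-5p, to which the same limit applies. The counts are too few to set the families apart from these shares.

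**Figure D4:**
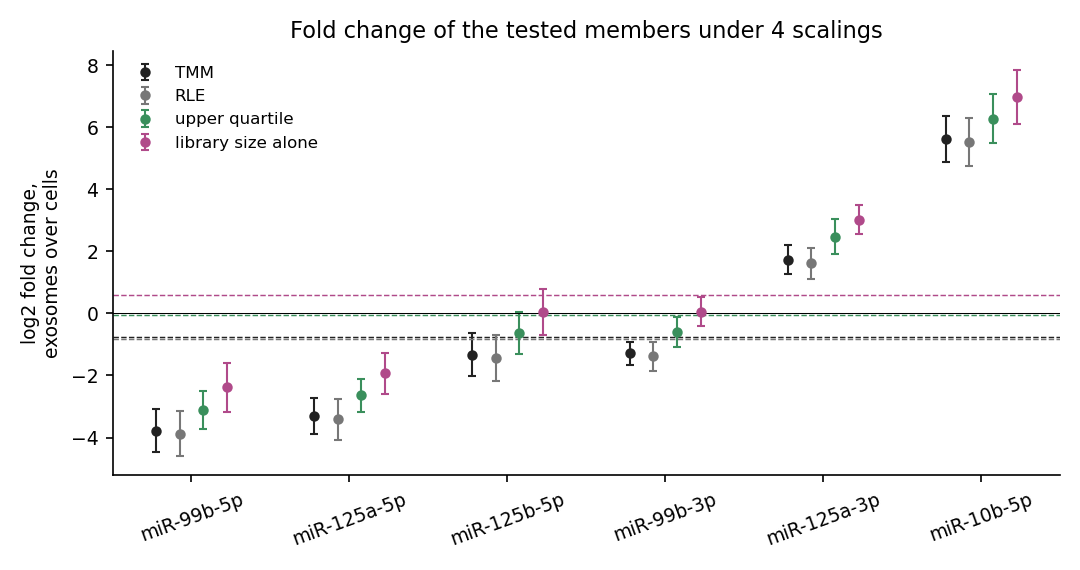
Log2 fold change of exosomes over cells (points, with standard errors from the quasi-likelihood test) for the 6 tested members under 4 ways of scaling the libraries. Dashed lines mark the median of all 438 tested miRNAs under each scaling, from -0.83 with RLE to 0.61 with library size alone. miR-99b-5p and miR-125a-5p stay below 0 and miR-125a-3p and miR-10b-5p above 0 under each of the 4, whereas miR-99b-3p and miR-125b-5p move to about 0 with library size alone.

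The scaling moved all values together, as the plot of fold changes under 4 scalings shows. The median log2 fold change of the tested miRNAs was -0.75 with TMM, -0.07 with upper quartile scaling and 0.61 with library size alone, so each change has to be read beside the median of its scaling.

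The miRNAs outside these lists whose profile over the 4 libraries was nearest to that of the summed members, by Euclidean distance of centred log2 normalized values, were miR-29a-3p (distance 0.255), miR-676-3p (0.271) and miR-30a-3p (0.351). Their log2 fold changes were -3.21, -3.05 and -3.35, and miR-676-3p rests on 3 and 1 counts in the exosomes.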

How the data were processed

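Small RNA libraries of MIN6 cells and MIN6-derived exosomes (SMARTer smRNA-Seq kit, HiSeq2500) were used as processed by the authors, who filtered and trimmed reads, discarded rRNA reads and aligned the remainder to the genome (mm10 per the labels), miRBase v21 and RNAcentral v10.0. The submitters' processing notes name cutadapt, Bowtie, STAR, RSEM, Bowtie2 and edgeR. The authors deposited raw read counts per mature miRNA. The deposited RPM values equal each count over the sum of its library. Per library, the authors also deposited counts per hairpin, per strand and on neither strand.

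Groups came from the sample titles. The members and lists were chosen with earlier results of these data known. miRNAs were kept by filterByExpr (minimum count 10, 438 of 1101 with a count), and all of them entered a single edgeR 4.0.16 quasi-likelihood model of exosomes against cells (TMM, Benjamini-Hochberg adjustment). The study's own criterion (edgeR's exactTest, at least 2-fold, unadjusted p under 0.05) was an alternative, as were DESeq2 1.42.0, other scalings and filters, a replicate block and leaving out each library. Standard errors (SE) were derived from the log2 fold change and its F statistic. Strand shares carry exact intervals, and 10 ratios within a library and the summed share were compared by exact two-sided permutation, where every p was 0.333 and stays so after Benjamini-Hochberg adjustment. The fits were tested on simulated data. R 4.3.3, Python 3.11.15 and scipy 1.17.1 were used.

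The text names all members, the other strands of their hairpins, the let-7 strands of the same clusters, the 3 miRNAs nearest in profile and the marker lists. miR-351-5p, miR-6367 and miR-6394 fall outside this rule, and the comparisons over all hairpins were added after the values were seen.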

Additional observations from a re-analysis of the deposited data

Results flagged for a closer look

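Reads on neither strand of mir-125a lay outside the main measurement. They made up 6.79% of the hairpin's 265 reads in exosome replicate 1 (95% exact interval 4.08 to 10.5) and 15.6% of 90 reads in replicate 2 (8.77 to 24.7). Both cell libraries had 0, which allows a share of up to 0.0100% and 0.0112% by the exact interval, so the exosome values were above the level in the cells. The median share over the 135 hairpins with at least 10 reads in every library was 0.0808% and 0.0521% in the cell libraries, against 2.13% and 3.33% in the exosome libraries. The same reads on mir-99b were 0 of 52 and 0 of 10 in the exosomes.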

How the results depend on the processing

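With 2 libraries a group and at most 47447 mature counts per exosome library, miR-10a-5p, miR-99a-5p and miR-100-5p had 0 exosome counts and were not tested, and miR-99b-3p, miR-125b-5p and miR-10b-5p rest on 8 or fewer counts per exosome library. The 3 lower members became 0 with library size alone (2 at an unadjusted p under 0.05 in edgeR, and 2 by DESeq2 with its own scaling) and 1 where at least 10 counts in every library were required, which left 2 members. The 2 higher members were miR-125a-3p and miR-10b-5p. With the main filter miR-10b-5p had to be higher to be tested, so its part in the counts of higher members is a description only. The 2 became 1 with at least 10 counts in every library, where miR-125a-3p was left. They also became 1 without a filter, with the replicate block and without each group's 5 most abundant miRNAs, where miR-125a-3p lost its call. Without single libraries, lower members ranged from 0 to 3 and higher members from 0 to 2. Both were 0 without either cell library in edgeR's quasi-likelihood test, where 2 lower and 1 higher still had an unadjusted p under 0.05 and the lone cell library was assumed to vary like the exosomes. Without exosome replicate 1 the log2 fold change was 4.89 for miR-10b-5p and -1.35 for miR-99b-3p. miR-99b-3p lost its call with RLE, upper quartile, DESeq2 and the block. The direction of miR-99b-3p turned to 0.054 and that of miR-125b-5p to 0.043 with library size alone, and miR-125b-5p was called without a filter (-2.59, adjusted p = 0.0258 in edgeR). The study's exactTest threshold called the same 5 members, with the same limit for miR-10b-5p. The replicate block left miR-125a-5p and miR-99b-5p lower and miR-10b-5p higher, the latter again under this limit. The labels do not say that a replicate number marks a shared batch, and deviations of same-numbered libraries correlated at 0.194. The members' summed share differed between exosomes and cells by -1.14 percentage points, by -4.08 with let-7 taken out of the denominator and by -2.64 with each group's 5 most abundant miRNAs taken out. Each library's own table held the same strand counts for mir-99b, mir-125a and let-7e, so their ratios could not move with it. The log2 differences of miR-125b-5p per let-7a-5p and per let-7c-5p read became 1.81 and 1.22 by that table. Strand and let-7 ratios kept their sign without each library in turn. Over all miRNAs, 129 lower calls became 30 with library size alone and 40 with at least 10 counts in every library, and 202 without a filter, while 104 higher calls became 137, 37 and 104. Upper quartile scaling gave 95 lower and 129 higher.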
